A study of Mus musculus with 14 samples.

Results

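The genes described here are 32 genes of sugar metabolism that carry out or set the pace of glycolysis, gluconeogenesis and glycogen turnover in the mouse, among 30436 features measured by RNA sequencing of liver and liver tumours. They were taken by symbol from a list of pathway genes, and the transcript rows of each symbol were summed. Of the 32, 11 are liver-enriched forms, 13 are broadly expressed forms or forms typical of other tissues, and 8 catalyse steps for which no liver form was set against another form. All 32 had rows, and 31 passed the filter on low counts. Eno1, the broadly expressed enolase, did not, with 0 to 1.78 CPM (counts scaled to library size) in the 14 libraries. Its near-identical copy Eno1b and the 9005 transcript rows without a gene name could hold its reads, so its level is uncertain and it is left out of every test below.

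The samples were 10 liver tumours and 4 normal livers of male C3HeB/FeJ mice, an inbred strain prone to spontaneous hepatocellular carcinoma, all labelled as 18 months old. Animals had been checked for tumours at 10 months and then injected for 6 cycles, on 5 days of each 28. Of the 6 tumours labelled Grow, Grow 1 and Grow 5 had the solvent DMSO, Grow 2, 3 and 4 had temozolomide (TMZ, a DNA alkylator, 22 mg/kg) with SAHA (suberoylanilide hydroxamic acid, a histone deacetylase inhibitor, 85 mg/kg), and Grow 6 had SAHA at 100 mg/kg. Of the 4 tumours labelled Regress, Regress 1 and Regress 3 had TMZ at 31 mg/kg, Regress 2 had phosphate citrate buffer and Regress 4 had DMSO, while all 4 normal livers (Normal 1 to 4) had the buffer. How growth or regression was judged is not given in the labels. Only Regress 2 shared its injection with the normal livers, so tissue and injected agent cannot be told apart in the other tumours. Regress 2 and Normal 4 carry 1 code in the labels, whose meaning is not given. Nor do the labels say that samples of a group came from separate mice, so the p-values reflect only how far these samples scatter, which may be technical.

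In liver, glucose enters and leaves through the transporter Slc2a2 and is trapped in the cell as glucose phosphate. Glycolysis runs down to pyruvate and lactate, and gluconeogenesis bypasses its irreversible steps with Pcx, Pck1, Fbp1 and G6pc, which lets the liver release glucose during fasting. Many steps have a hepatocyte form and a form used by most other cells, and hepatocellular carcinomas are known for a loss of the first and a gain of the second, such as Pkm in place of Pklr.

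Libraries held 4707063 to 13394301 estimated counts, and the biological coefficient of variation common to all tested features was 0.484. Grow 3 and Grow 4 were the closest pair of any group, with an SD of 0.438 for their difference in log2 CPM against at least 0.667 in other pairs, but differed by more than sampling noise. They also held 24514 and 24423 CPM of 10 pericentral hepatocyte markers, led by Cyp2e1 (medians of 677, 1339 and 4403 CPM in Grow, Regress and Normal) and Glul (102, 192 and 334 CPM), against 229 to 1708 CPM in the other Grow tumours, 538 to 3798 CPM in Regress tumours and 3836 to 10975 CPM in normal livers. The summed level of 10 general hepatocyte markers was 44333 to 234790 CPM in Grow, 82939 to 172929 CPM in Regress and 60360 to 87106 CPM in Normal. Its most abundant genes were Alb, with medians of 144901, 114241 and 37888 CPM in that order, and Apoa1, with 14835, 26132 and 9653 CPM. These 2 were the only markers of the list with a positive log2 fold change in tumours, 1.48 for Alb and 1.13 for Apoa1, neither called by edgeR (adjusted p = 0.184 and 0.238). The other 8 were negative, with a median of -0.34 over all 10, and Tat was called lower. The tissue was sequenced in bulk, so fewer cells of a type and less RNA per cell cannot be told apart.

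No single gene of the set passed the test between tumours and normal liver. The fold changes of its liver-enriched and its broadly expressed members lay mostly on opposite sides of 0. Of 11 liver-enriched genes, 10 had a negative log2 fold change in tumours, with a median of -0.47, and the lowest p among them belonged to the gluconeogenic enzymes Pck1 and Fbp1. Of the 12 broad or other-tissue genes tested, 10 had a positive one, with a median of 0.63, led by the pyruvate kinase Pkm and the phosphofructokinase Pfkp. The 8 genes of the remaining steps had a median of 0.13. Over all 12300 features tested the median was 0.01 and 49.1% were negative, while the 31 members together had a median of 0.07. Members were assigned to these groups with earlier results of these data known. Per library, tumours and normal livers overlapped in their mean log2 difference from normal liver. Liver-enriched genes were at -0.42 in Normal 2, below Grow 2, 5 and 6 and Regress 2 (-0.21, -0.18, -0.24 and -0.38). Broad genes were at 0.36 in Normal 1, above Grow 1, 2 and 6 and Regress 1 and 3 (0.14, 0.32, 0.28, -0.52 and 0.16). The other tumours lay below all normal livers for the first group and above them for the second.

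edgeR's quasi-likelihood test called 0 of the 31 members in tumours against normal liver at a Benjamini-Hochberg adjusted p under 0.05, where it called 2.32% of all features. At an unadjusted p under 0.05 it gave 10 members, where 18% of all features passed: 4 were higher (9.98% of all features) and 6 lower (8.01%). DESeq2 called Pkm higher (adjusted p = 0.0363) and Pck1 lower (adjusted p = 0.0396), where it called 8.61% of all features. limma-voom called 0 members and 1.03% of all features, with 7 members at an unadjusted p under 0.05. No member was above all normal livers in all 10 tumours, as 1.09% of all features were, or below them in all 10, as 0.935% were. Grow and Regress count equally in the effect given for tumours, and the 3 comparisons with normal liver share its 4 libraries. The plot of fold changes by gene shows the members side by side.

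**Figure D1:**
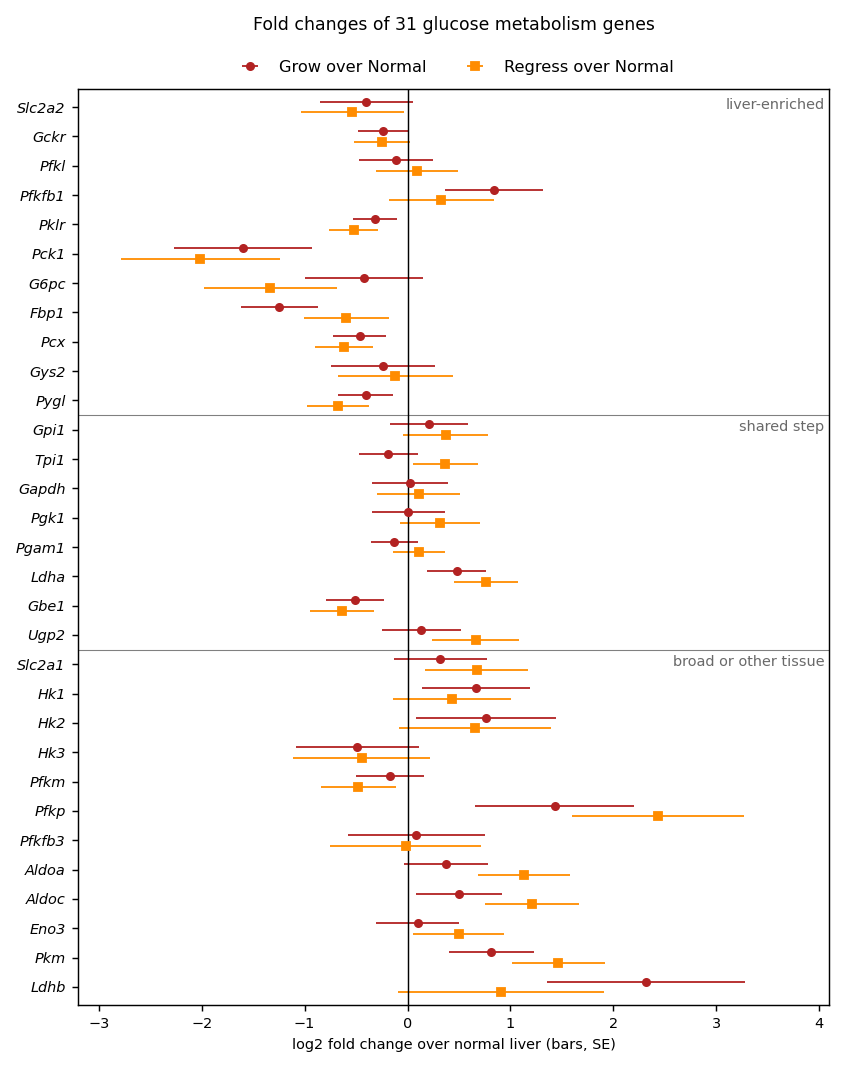
Log2 fold change of 31 glucose metabolism genes in Grow (circles) and Regress (squares) tumours over normal liver, with bars of 1 standard error, genes grouped as liver-enriched, shared step, and broad or other tissue. Liver-enriched genes lie mostly left of 0, with Pck1 farthest left in both, and broad genes mostly right of 0, with Pfkp and Ldhb farthest right.

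Among the gluconeogenesis genes, Pck1, the cytosolic phosphoenolpyruvate carboxykinase that commits carbon to glucose, ranged from 109.5 to 848 CPM in Grow tumours with a median of 437. It stood at 328, 570.4, 418 and 58.3 CPM in Regress 1 to 4, against 1432, 563, 1264 and 2292 CPM in Normal 1 to 4. The groups overlapped through 1 normal liver: Normal 2 lay below Grow 2, 5 and 6 and just below Regress 2, while the other normal livers were above every tumour. The log2 fold change in all tumours was -1.81 ± 0.59 (SE, adjusted p = 0.112 by edgeR), and it was -1.60 ± 0.67 in Grow (adjusted p = 0.233) and -2.01 ± 0.77 in Regress (adjusted p = 0.211). Grow 3, Grow 4 and Regress 4, at 116, 109.5 and 58.3 CPM, held the least Pck1, and these 3 also had the lowest sums of 9 other periportal markers, 739, 721 and 1861 CPM. That sum, led by Ass1 (medians of 926, 2558 and 3083 CPM in Grow, Regress and Normal) and Cps1 (1163, 828 and 2018 CPM), was 3302 to 5396 CPM in the other Grow tumours, 6659 to 8181 CPM in the other Regress tumours and 7191 to 10016 CPM in Normal, and its part in the Pck1 values was not tested.

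Fbp1, the fructose bisphosphatase that reverses the phosphofructokinase step, was at 296 to 473 CPM in Grow tumours, with a median of 381. It stood at 821, 787, 659 and 150.1 CPM in Regress 1 to 4, against 1038, 882, 701 and 1029.9 CPM in Normal 1 to 4. Every Grow tumour lay below every normal liver, whereas Regress 1 and Regress 2 overlapped the normal range. The log2 fold change was -0.92 ± 0.33 in tumours (adjusted p = 0.152). G6pc, the catalytic unit of glucose-6-phosphatase that frees glucose for release, ranged from 42.4 to 148 CPM in Grow (median 114), was 133, 7.71, 64.4 and 28.9 CPM in Regress 1 to 4, and 131, 70.6, 142 and 245 CPM in Normal 1 to 4. Its log2 fold change was -0.88 ± 0.51 in tumours (adjusted p = 0.421), and the groups overlapped. Pcx, the mitochondrial pyruvate carboxylase that opens the pathway, averaged 332 ± 72.7 CPM in Grow (SD, n = 6), 299 ± 61.9 in Regress and 458 ± 124 in Normal (n = 4 each), with an adjusted p of 0.229 in tumours.

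Pck2, the mitochondrial phosphoenolpyruvate carboxykinase, went the other way from Pck1. It is not among the 32 genes. In a list of 12 further gluconeogenesis genes, 11 of them tested, it was the only one edgeR called in tumours (2.32% of all features). It stood at 6.56 to 14.4 CPM in Grow tumours (median 9.90) and at 1.77, 23.9, 14.2 and 24.0 CPM in Regress 1 to 4, against 3.51, 2.10, 2.84 and 2.04 CPM in Normal 1 to 4. All tumours but Regress 1 were above all normal livers. It rose in tumours by 2.27 ± 0.51 on the log2 scale (adjusted p = 0.0384 by edgeR). DESeq2 called it as well and limma-voom did not. The call was lost in 9 of 14 fits with 1 library left out, those without Normal 1, 2, 3 or 4, Grow 1, 5 or 6, or Regress 2 or 3, and the log2 fold change was 2.13 to 2.45 over the 14 fits. Of the same list, 8 of 11 genes had a negative log2 fold change, with a median of -0.37.

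To set Pck1 and Fbp1 beside Pck2 and the lactate enzyme Ldha, whose values follow, the 250 bases before each start site are printed 5′ to 3′ on the gene's own strand, from RefSeq and the build GRCm38.p6. Pck1 lies at chr2:173152823-173153072 on the plus strand, Fbp1 at chr13:62888283-62888532 on the minus strand, Pck2 at chr14:55540016-55540265 on the plus strand and the first of 2 starts of Ldha at chr7:46845554-46845803 on the plus strand. Capitals mark matches on either strand to the motifs searched.
Pck1: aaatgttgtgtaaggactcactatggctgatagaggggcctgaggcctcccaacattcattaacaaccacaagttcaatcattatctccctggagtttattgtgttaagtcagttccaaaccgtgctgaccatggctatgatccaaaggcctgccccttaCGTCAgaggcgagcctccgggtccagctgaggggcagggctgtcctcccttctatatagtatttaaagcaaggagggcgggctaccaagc
Fbp1: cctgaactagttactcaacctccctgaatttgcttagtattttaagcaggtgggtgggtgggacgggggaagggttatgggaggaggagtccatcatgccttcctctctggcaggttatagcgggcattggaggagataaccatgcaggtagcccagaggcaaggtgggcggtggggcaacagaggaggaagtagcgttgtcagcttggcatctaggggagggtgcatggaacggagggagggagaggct
Pck2: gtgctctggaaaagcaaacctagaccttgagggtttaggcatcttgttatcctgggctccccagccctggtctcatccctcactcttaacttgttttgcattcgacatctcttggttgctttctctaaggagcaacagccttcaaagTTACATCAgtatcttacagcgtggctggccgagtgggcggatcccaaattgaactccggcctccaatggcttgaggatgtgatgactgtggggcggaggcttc
Ldha: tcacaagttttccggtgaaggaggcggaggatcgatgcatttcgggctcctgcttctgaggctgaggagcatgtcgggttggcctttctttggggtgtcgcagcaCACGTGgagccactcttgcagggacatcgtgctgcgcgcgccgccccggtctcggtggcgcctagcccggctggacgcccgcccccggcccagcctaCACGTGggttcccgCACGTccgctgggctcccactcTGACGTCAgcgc
Pck1 held 1 match to the cAMP response element core TGACG, on the minus strand at position -90 from the start, a sequence found in 17.8% of 32851 promoter windows of that length. Pck2 held 1 match to the amino acid response element TGATGNAA at -103 on the minus strand, which 3.45% of windows had, and so did G6pc at -138. At its first start, Ldha held 1 full cAMP response element TGACGTCA at -12 (1.55% of windows), 2 E-boxes CACGTG at -145 and -48 (6.02%), and 5 matches to ACGTG, the core of the hypoxia response element (16.6%), of which 4 overlap the E-boxes. The window before its second start, not printed, held 1 match to TGACG at -143 and none to the other motifs. Which start these samples used was not tested. Fbp1 held none of the 6 motifs searched, the last being the D-box TTATGNAA (3.07% of windows). Of 49 windows of the 31 members with an entry, 16 held ACGTG, or 32.7%. They belonged to 13 genes, 2 of them liver-enriched, 7 broad and 4 of the remaining steps. A match describes the letters only.

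Genes of glucose entry and trapping kept their order of abundance. Per kilobase of transcript, Slc2a2 averaged 36.0 CPM per kb in Grow, 32.8 in Regress and 47.6 in Normal, far above the broadly expressed transporter Slc2a1 at 2.17, 2.75 and 1.74 CPM per kb. Slc2a2 ranged from 72.8 to 321 CPM in Grow (median 222) and was 99.5, 280.3, 215 and 135 CPM in Regress 1 to 4, against 187, 169.8, 364 and 339 CPM in Normal 1 to 4. Grow 3, Grow 4 and Regress 1 held the least. Slc2a1 ranged from 3.30 to 10.2 CPM in Grow (median 7.31) and was 3.94, 11.9, 4.38 and 15.7 CPM in Regress 1 to 4, against 7.72, 2.63, 8.67 and 3.64 CPM in Normal 1 to 4, so Regress 2, Regress 4 and Grow 5 lay above the normal range. Hk1, the hexokinase of most tissues, was at 2.40 to 4.57 CPM in Grow (median 3.01) and 2.36, 1.38, 0.515 and 6.77 CPM in Regress 1 to 4, against 2.28, 1.05, 2.69 and 2.33 CPM in Normal 1 to 4. Hk2, the insulin-responsive hexokinase of muscle and many tumours, was at 1.03 to 2.32 CPM in Grow (median 1.65) and 0.591, 0.395, 0.258 and 4.66 CPM in Regress 1 to 4, against 1.58, 1.05, 0.897 and 0.436 CPM in Normal 1 to 4. Both were highest in Regress 4 and lowest in Regress 3.

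Gckr, a regulatory protein of hepatocytes that acts at glucose phosphorylation, averaged 94.2 ± 11.9 CPM in Grow (SD, n = 6), 93.4 ± 32.4 in Regress and 111 ± 19.2 in Normal (n = 4 each). Hk3, a hexokinase of white blood cells, averaged 2.97 ± 1.58, 2.94 ± 2.57 and 4.13 ± 3.13 CPM in the same order, so its spread within groups exceeded the differences.

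At the phosphofructokinase step, which commits sugar to glycolysis, the platelet form Pfkp differed most. It was between 2.00 and 8.91 CPM in Grow (median 2.71) and 0.985, 2.97, 9.27 and 21.9 CPM in Regress 1 to 4, against 1.58, 2.45, 0.448 and 2.04 CPM in Normal 1 to 4. Regress 4, Regress 3, Grow 5 and Grow 1 held the most, and the other tumours were near the normal range. The value in Normal 3 stands for 3 counts. The log2 fold change was 1.93 ± 0.75 in tumours (adjusted p = 0.180) and 2.43 ± 0.84 in Regress (adjusted p = 0.168). Pfkl, the liver form, was at 19.7 to 52.7 CPM in Grow (median 27.4) and 17.7, 55.6, 23.7 and 48.4 CPM in Regress 1 to 4, against 33.7, 24.2, 49.5 and 29.4 CPM in Normal 1 to 4. The muscle form Pfkm was at 7.40 to 16.4 CPM in Grow (median 9.49) and 5.32, 10.3, 5.41 and 13.8 CPM in Regress 1 to 4, against 11.8, 9.11, 16.3 and 11.8 CPM in Normal 1 to 4. The groups overlapped for both.

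The Pfkfb enzymes make and break down fructose-2,6-bisphosphate, the activator of this step. Pfkfb1, the hepatic form, ranged from 9.44 to 43.3 CPM in Grow (median 16.7) and was 13.0, 19.6, 21.6 and 8.04 CPM in Regress 1 to 4, against 7.90, 9.99, 8.37 and 23.0 CPM in Normal 1 to 4. Grow 3 and Grow 4, at 34.0 and 43.3 CPM, lay above every other library. It was the only liver-enriched gene with a positive log2 fold change in all tumours, 0.58 ± 0.44 (adjusted p = 0.582). Pfkfb3, the inducible form, was at 6.62 to 29.9 CPM in Grow (median 9.66) and 1.38, 21.9, 7.98 and 26.4 CPM in Regress 1 to 4, against 10.5, 6.83, 11.1 and 30.3 CPM in Normal 1 to 4, and the groups overlapped.

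Among the aldolases, Aldoa, the aldolase of muscle and most cells, was at 71.8 to 105 CPM in Grow (median 85.2) and at 41.0, 308, 113 and 120.3 CPM in Regress 1 to 4, against 82.9, 40.1, 60.7 and 82.6 CPM in Normal 1 to 4. Regress 2 stood apart with 308 CPM, and Regress 1 was as low as the lowest normal liver. Aldoc, the brain form, was at 10.9 to 28.1 CPM in Grow (median 19.2) and 16.5, 52.2, 27.8 and 29.1 CPM in Regress 1 to 4, against 11.6, 4.73, 11.4 and 26.5 CPM in Normal 1 to 4. Regress 2 was again the highest, and the log2 fold change in Regress was 1.21 ± 0.46 (adjusted p = 0.206).

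Among the enzymes of shared steps, Gpi1, Tpi1, Gapdh, Pgk1 and Pgam1 showed small differences. The largest of that group in tumours, for Ldha (0.62 in log2 fold change) and Gbe1 (-0.57), are described below. Log2 fold changes in tumours were 0.29 for Gpi1, which converts glucose phosphate to fructose phosphate, 0.09 for the triose phosphate isomerase Tpi1, 0.07 for the dehydrogenase Gapdh, 0.16 for the phosphoglycerate kinase Pgk1 and -0.01 for the mutase Pgam1. Their adjusted p ran from 0.785 to 0.992. Gapdh, often used as a reference gene, varied from 420.1 to 1267 CPM among the 14 libraries, a level that is uncertain because the gene has many processed copies. Pgk1 was at 485 and 491 CPM in Grow 3 and Grow 4, against 177 to 294 CPM in the other Grow tumours. The muscle enolase Eno3 stayed between 1.83 and 7.47 CPM, and skeletal muscle markers were near 0: the sum of 9 was 0.310 to 2.64 CPM in Grow, 0.198 to 1.80 CPM in Regress and 0.299 to 1.23 CPM in Normal, with Mylpf at medians of 0.326, 0.409 and 0.325 CPM and Actn3 at medians of 0 in the 3 groups, and with Acta1, Myh4, Tnnt3 and Pvalb at 0 in every library.

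At the last step of glycolysis, Pkm, the pyruvate kinase of proliferating and most non-hepatic cells, was higher in most tumours. It ranged from 17.0 to 26.7 CPM in Grow with a median of 21.7, and was 8.47, 32.4, 33.7 and 61.9 CPM in Regress 1 to 4, against 20.01, 7.53, 11.4 and 10.6 CPM in Normal 1 to 4. Regress 1 lay inside the normal range, Grow 1 and Grow 2 were just below Normal 1, and the other tumours were above all normal livers. The log2 fold change was 1.14 ± 0.39 in tumours (adjusted p = 0.133) and 1.47 ± 0.45 in Regress (adjusted p = 0.125), by edgeR. Without Regress 1 it was 1.30 ± 0.28 in tumours (adjusted p = 0.0158) and 1.78 ± 0.33 in Regress (adjusted p = 0.0112), both past the threshold in fits that called 7.84% and 5.28% of all features. The liver form Pklr was at 74.9 to 109 CPM in Grow (median 100.4) and 63.4, 77.7, 82.9 and 104 CPM in Regress 1 to 4, against 85.1, 118, 151 and 118 CPM in Normal 1 to 4. All tumours were below 3 of the 4 normal livers, and its log2 fold change in tumours was -0.42 ± 0.19 (adjusted p = 0.271).

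Ldha, the lactate dehydrogenase subunit that favours lactate, ranged from 739 to 1047 CPM in Grow tumours with a median of 838. It was 629.6, 1588, 1201 and 745 CPM in Regress 1 to 4, against 727, 523, 634 and 574 CPM in Normal 1 to 4. All Grow tumours were above all normal livers, by as little as 739 against 727 CPM, and Regress 1 lay within the normal range. The log2 fold change in tumours was 0.62 ± 0.27 (adjusted p = 0.241). Ldhb, the subunit of heart and other oxidative tissue, was at 40.4 and 40.6 CPM in Grow 3 and Grow 4, the 2 libraries with high pericentral markers, against 1.70 to 7.90 CPM in the other tumours and 1.75 to 4.95 CPM in Normal. Its log2 fold change in Grow was 2.32 ± 0.96 (adjusted p = 0.228), while the other 4 Grow tumours lay at 1.70 to 3.15 CPM. Per kilobase Ldha exceeded Ldhb in each group's mean, at 539 against 11.5 CPM per kb in Grow, 655 against 4.33 in Regress and 387 against 2.30 in Normal.

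**Figure D2:**
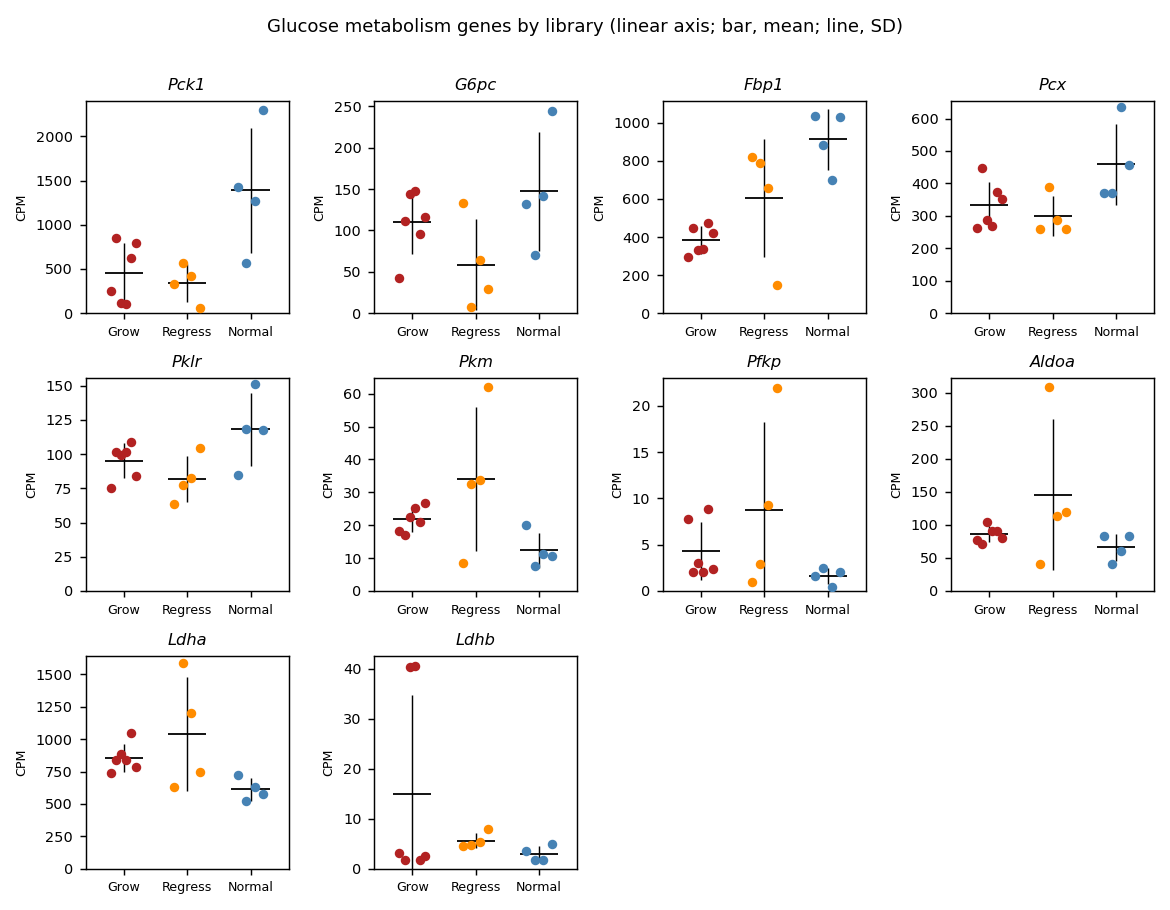
CPM (linear axis from 0) of 10 glucose metabolism genes in each library, with Grow (n = 6), Regress (n = 4) and Normal (n = 4) from left to right, a bar at the mean and a line of 1 SD. Pck1 and Fbp1 are lower in Grow than in most normal livers, Pkm and Ldha are higher in most tumours, and Ldhb is high in only 2 Grow tumours.

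None of the glycogen genes of the set was called by edgeR in any comparison. Gys2, the liver glycogen synthase, was at 81.7 to 155 CPM in Grow (median 108) and 40.6, 316, 68.8 and 67.7 CPM in Regress 1 to 4, against 93.2, 64.5, 168 and 211 CPM in Normal 1 to 4. Only Regress 2 lay above the normal range. Its muscle counterpart Gys1, outside the set, was at 1.41 to 2.51 CPM in Grow (median 2.22) and 1.18, 2.37, 1.29 and 2.68 CPM in Regress 1 to 4, against 1.58, 1.75, 2.24 and 1.31 CPM in Normal 1 to 4. Pygl, the liver phosphorylase that releases sugar from glycogen, was at 98.8 to 228 CPM in Grow (median 176) and 163, 116, 169 and 136 CPM in Regress 1 to 4, against 212, 161, 329 and 229 CPM in Normal 1 to 4. The groups overlapped, and its log2 fold change in tumours was -0.54 ± 0.25 (adjusted p = 0.262). The branching enzyme Gbe1 averaged 59.7 ± 21.1 CPM in Grow (SD, n = 6), 54.7 ± 11.6 in Regress and 85.0 ± 22.8 in Normal (n = 4 each), with -0.57 ± 0.25 in tumours (adjusted p = 0.247). Ugp2, which makes the UDP-glucose that glycogen is built from, reached 1107 CPM in Regress 2 and lay between 256 and 806 CPM elsewhere.

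In a list of 16 further glycogen genes, 14 were tested. edgeR called 1 in tumours against normal liver (2.32% of all features): Gyg, the glycogenin that primes new glycogen. It stood at 8.51 to 16.9 CPM in Grow (median 12.2) and 7.29, 12.3, 11.8 and 12.1 CPM in Regress 1 to 4, against 3.86, 4.91, 5.08 and 6.55 CPM in Normal 1 to 4. Every tumour was above every normal liver. By edgeR it rose by 1.19 ± 0.25 on the log2 scale in tumours (adjusted p = 0.0320) and by 1.29 ± 0.26 in Grow (adjusted p = 0.0301). DESeq2 called 3 of the 14 in tumours, Gyg, Pgm2 and Pygb, and limma-voom 0, with 4 at an unadjusted p under 0.05. Without Normal 1, 2, 3 or 4, Grow 6 or Regress 3 the tumour call was lost, and the Grow call was lost without Normal 1, 2, 3 or 4 or Grow 1, 3, 4, 5 or 6. Over the 14 fits with 1 library left out the log2 fold change was 1.07 to 1.33 in tumours and 1.17 to 1.43 in Grow. Pygb, the brain phosphorylase, had a larger difference that did not pass in edgeR, with 3.06 ± 0.88 in tumours (adjusted p = 0.0749), whereas DESeq2 called it in tumours, Grow and Regress against normal liver. It was at 59.9, 50.2, 58.0 and 59.0 CPM in Grow 1, 2, 5 and 6, 7.57 and 5.19 CPM in Grow 3 and 4, and 1.97, 29.1, 15.2 and 75.3 CPM in Regress 1 to 4, against 3.69, 2.45, 5.83 and 4.66 CPM in Normal 1 to 4. Regress 1 and Grow 4 were inside or below the normal range and the other tumours above it.

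Setting the liver form of a step over its other form within each library removes any factor that scales both alike. Of 7 such pairs, expressed as the log2 ratio of CPM per kb with no test made, 5 had a lower mean in tumours. Pklr over Pkm averaged 1.86 ± 0.32 in Grow (SD, n = 6), 1.28 ± 0.92 in Regress and 3.03 ± 0.83 in Normal (n = 4 each), and 6 of 10 tumours were below the lowest normal liver. In all 10 tumours Pklr stayed the more abundant per length. Fbp1 over Pfkp, which sets the enzymes of 2 opposing reactions at 1 step against each other, averaged 8.09 ± 0.96 in Grow, 8.02 ± 2.84 in Regress and 10.52 ± 0.66 in Normal, with 9 of 10 tumours below the lowest normal liver. Pfkp had only 3 counts in Normal 3.

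Pygl over Pygb had the largest difference in means of the 7 pairs. It was between 1.19 and 5.34 in Grow (median 2.51) and 6.64, 2.46, 3.92 and 1.31 in Regress 1 to 4, against 6.20, 6.34, 6.22 and 6.00 in Normal 1 to 4. The normal livers lay close together, 9 of 10 tumours lay below all of them, and Regress 1 lay above. Pfkl over Pfkp (2.96 ± 1.11 in tumours, 4.42 ± 1.27 in Normal) had 6 tumours below, and Slc2a2 over Slc2a1 (3.76 ± 0.80 and 4.78 ± 0.80) 4. Gys2 over Gys1 (5.97 ± 0.69 and 6.40 ± 0.86) had 2.

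In 2 pairs the difference ran the other way. Pfkl over Pfkm was at 1.12 ± 0.25 in Grow, 1.61 ± 0.32 in Regress and 1.06 ± 0.13 in Normal, and Regress did not overlap Normal. Pfkfb1 over Pfkfb3 averaged 1.98 ± 1.20 in tumours and 1.24 ± 0.46 in Normal, and ran from -0.28 in Regress 4 to 4.40 in Regress 1. Regress 4 had the lowest ratio of all 14 libraries in 5 of the 7 pairs and in Fbp1 over Pfkp.

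**Figure D3:**
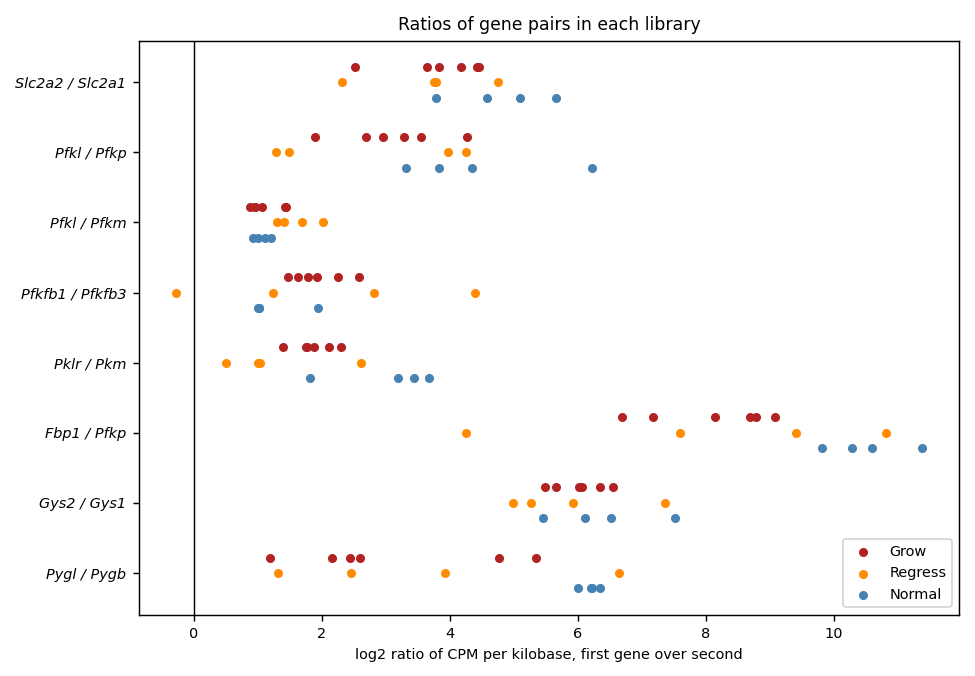
Log2 ratio of CPM per kb in each library for 7 pairs of a liver form over the other form of its step and for Fbp1 over Pfkp, 2 opposing enzymes, with Grow in the upper row of each pair, Regress in the middle and Normal in the lower. The Grow points lie left of all Normal points for Fbp1 over Pfkp and Pygl over Pygb.

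For Grow tumours against normal liver, 10 of 11 liver-enriched genes had a negative log2 fold change (median -0.40) and 10 of 12 broad genes a positive one (median 0.43). edgeR called 0 of 31 members, where 1.76% of all features were called, and 3 members had an unadjusted p under 0.05 (16.6% of all features), 1 higher (9.46%) and 2 lower (7.09%). limma-voom called 0 members and 0.732% of all features, with 2 members at an unadjusted p under 0.05. DESeq2 called Fbp1 lower (adjusted p = 0.0157) and 8.27% of all features. Fbp1 had the lowest p in edgeR too, with a log2 fold change of -1.24 ± 0.37 (adjusted p = 0.0904). It passed when only Grow and Normal libraries were fitted (-1.23, adjusted p = 0.0104), where 7.32% of all features passed, and when Regress 4 was left out of the shared spread (-1.24, adjusted p = 0.0116), where 5.2% passed. Ldha was above all normal livers in every Grow tumour, which 5.27% of all features were, and Fbp1 below, which 4.28% were. Ldhb, Pck1 and Pkm followed Fbp1 by p, Pkm with 0.81 ± 0.41 (adjusted p = 0.347).

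For Regress tumours against normal liver, 9 of 11 liver-enriched genes had a negative log2 fold change (median -0.54) and 9 of 12 broad genes a positive one (median 0.66). edgeR called 0 of 31 members, where 0.0244% of all features were called, and 9 members had an unadjusted p under 0.05 (16.2% of all features), 5 higher (9.56%) and 4 lower (6.6%). limma-voom called 0 members and 0% of all features, with 8 members at an unadjusted p under 0.05. DESeq2 called Pkm (adjusted p = 0.0245) and Pfkp (adjusted p = 0.0445) higher, and 5.81% of all features. No member was above all normal livers in all 4 Regress tumours (2.72% of all features were) or below them in all 4 (3.2%). Without Regress 1, edgeR called Pkm, Pfkp (2.80 ± 0.75, adjusted p = 0.0489) and Aldoa (1.44 ± 0.36, adjusted p = 0.0377) higher. That fit called 5.28% of all features. In Regress 1 the 12 broad genes had a mean log2 difference from normal liver of -0.52, whereas it was 0.70, 0.16 and 1.38 in Regress 2, 3 and 4.

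Many of the extreme values lay in single libraries, among them Regress tumours and normal livers. Regress 4 had the highest value of the 14 libraries for 5 members, Slc2a1, Hk1, Hk2, Pfkp and Pkm, and the lowest for 6, among them Pck1, Fbp1 and Gckr. It also held 1036 CPM of 10 stellate cell and fibroblast markers, led by Dcn (medians of 42.1, 177 and 231 CPM in Grow, Regress and Normal) and Col3a1 (19.6, 44.5 and 10.5 CPM), against 79.3 to 137 CPM in Grow, 140.0 to 392 CPM in the other Regress tumours and 196 to 401 CPM in Normal. Their part in its values was not tested. Regress 2 was highest for 9 members, among them Aldoa, Aldoc, Ldha, Gys2 and Ugp2, and lowest for G6pc. Regress 1 was lowest for 6 members. Among the normal livers, Normal 2 was also lowest for 6 members and Normal 3 highest for 5. Only the 9 members highest in Regress 2 exceeded the counts of every normal liver.

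**Figure D4:**
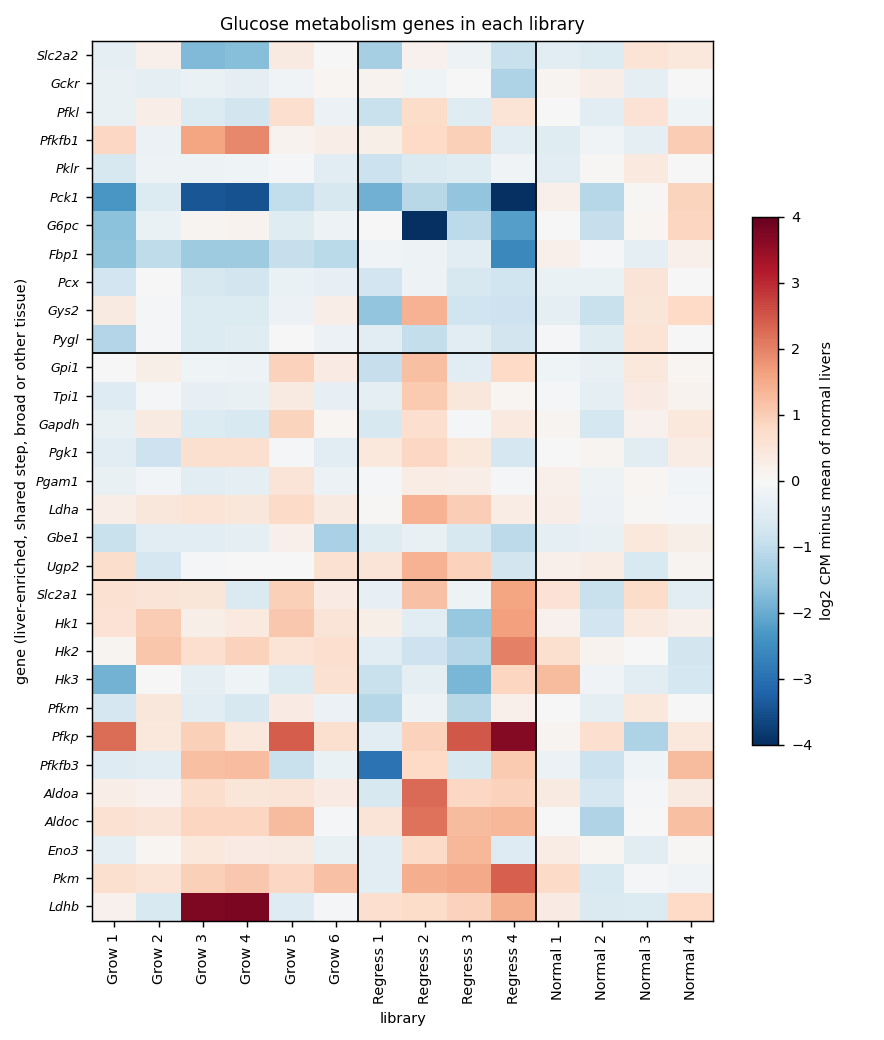
Log2 CPM of each of the 31 tested genes minus its mean over the 4 normal livers, by library, with Grow, Regress and Normal from left to right and liver-enriched, shared-step and broad genes from top to bottom; colours are capped at -4 and 4. Pck1 in Regress 4 and G6pc in Regress 2 lie below -4, Ldhb is high in Grow 3 and Grow 4, and Regress 4 combines low liver-enriched with high broad genes.

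Regress tumours did not differ detectably from Grow tumours in any member. edgeR called 0 of 31, where 0% of all features were called, and 0 had an unadjusted p under 0.05 (10% of all features). DESeq2 called 0 members and 0.253% of all features, with 2 members at an unadjusted p under 0.05, and limma-voom 0 members and 0% of all features, with 1. No member lay wholly above (0.374% of all features) or wholly below (0.545%) the Grow tumours in the 4 Regress tumours. The lowest p belonged to Tpi1 (0.56 ± 0.29 in log2 fold change, adjusted p = 0.491), Aldoa (0.76 ± 0.40, adjusted p = 0.494), Aldoc (0.71 ± 0.41) and Fbp1 (0.65 ± 0.37), the last 2 at an adjusted p of 0.509. Standard errors ran from 0.22 for Pklr to 0.91 for Ldhb, which sets the size of difference this comparison could show. Without Regress 4, in a fit that called 9.98% of all features, Fbp1 was called higher in Regress (0.97 ± 0.24, adjusted p = 0.0359) and Hk2 lower (-1.95 ± 0.55, adjusted p = 0.0439). Regress 1, 2 and 3 each held 3 counts or fewer of Hk2 (0.591, 0.395 and 0.258 CPM), so its fold rests on few counts.

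Of the genes around pyruvate and lactate outside the set, 15 of 17 listed were tested. edgeR called 2, both higher, in tumours and in Grow against normal liver, where it called 2.32% and 1.76% of all features. DESeq2 called these and Pdp1 in both comparisons, and limma-voom called Slc16a1 alone. Pdk4, the kinase that shuts off pyruvate dehydrogenase, was at 3.81 to 27.6 CPM in Grow (median 16.8) and 10.4, 7.51, 7.98 and 31.9 CPM in Regress 1 to 4, against 1.58, 2.98, 1.34 and 2.04 CPM in Normal 1 to 4. Its log2 fold change was 2.97 ± 0.60 in tumours (adjusted p = 0.0290) and 3.07 ± 0.62 in Grow (adjusted p = 0.0301). Every tumour was above every normal liver. Slc16a1, the monocarboxylate transporter that carries lactate, ranged from 62.7 to 112 CPM in Grow (median 86.7) and was 52.2, 35.4, 53.3 and 81.8 CPM in Regress 1 to 4, against 31.4, 31.9, 44.4 and 22.5 CPM in Normal 1 to 4. It rose by 1.11 ± 0.25 on the log2 scale in tumours (adjusted p = 0.0397) and by 1.44 ± 0.27 in Grow (adjusted p = 0.0280), and only Regress 2 overlapped the normal livers. Both lost both calls without Normal 1, 2, 3 or 4; in the tumour comparison Slc16a1 lost it also without Grow 4, 5 or 6 or Regress 3, and in Grow both lost it without Grow 5 or Grow 6. Over the 14 fits with 1 library left out, the log2 fold change in tumours was 2.59 to 3.22 for Pdk4 and 0.96 to 1.29 for Slc16a1, and in Grow 2.86 to 3.32 and 1.30 to 1.62.

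**Figure D5:**
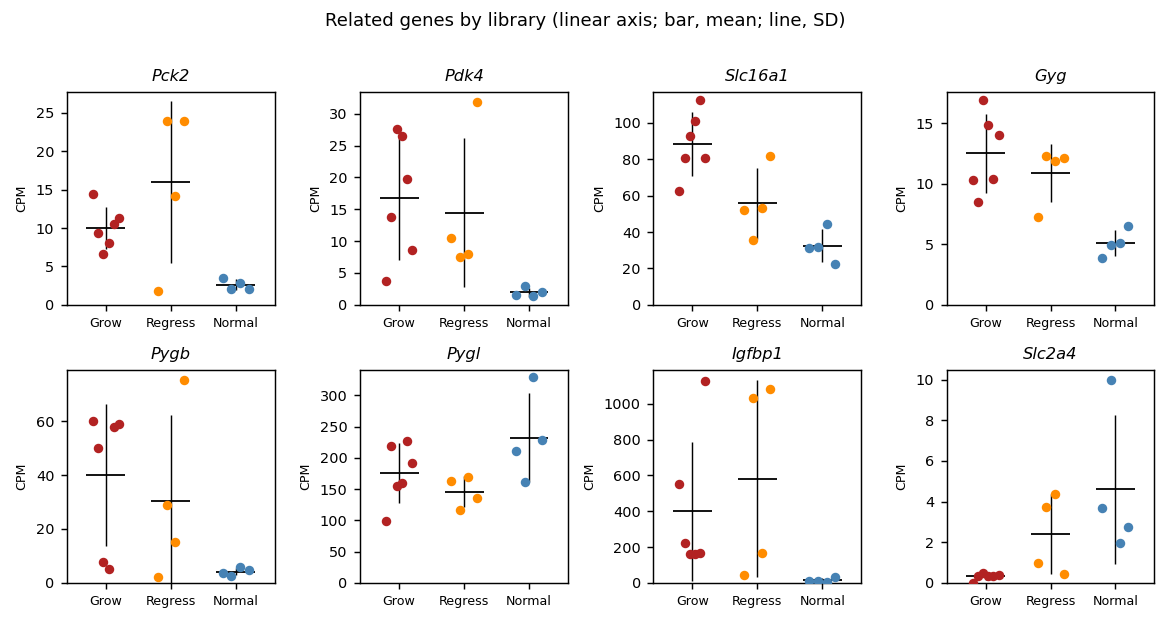
CPM (linear axis from 0) of Pygl and of 7 related genes outside the set in each library, with Grow (n = 6), Regress (n = 4) and Normal (n = 4) from left to right, a bar at the mean and a line of 1 SD. Pdk4, Gyg and Igfbp1 are higher in every tumour than in any normal liver, Pck2 in all but Regress 1, and Slc2a4 is at or below 0.505 CPM in Grow.

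Of 27 regulators of glucose metabolism, edgeR called 2 in tumours against normal liver, where 2.32% of all features were called. DESeq2 called 4, adding Srebf1 and Trib3, and limma-voom called Igfbp1 alone. Igfbp1, a binding protein for insulin-like growth factors that insulin represses, rose by 5.12 ± 1.04 in tumours (adjusted p = 0.0290) and 4.85 ± 1.05 in Grow (adjusted p = 0.0367). It was at 161 to 1129.7 CPM in Grow and 44.7 to 1081 CPM in Regress, against 4.33 to 30.5 CPM in Normal. Tat, the tyrosine aminotransferase induced by glucocorticoids and fasting, fell by 1.52 in tumours (SE 0.36, adjusted p = 0.0408). Igfbp1 lost its tumour call without Normal 1, 2, 3 or 4, and its Grow call also without Grow 1, 5 or 6. Tat lost its call without Normal 1, 2, 3 or 4, Grow 1, 3, 4, 5 or 6, or Regress 3. The log2 fold change over the 14 fits was 4.79 to 5.86 for Igfbp1 and -1.74 to -1.37 for Tat in tumours, and 4.19 to 5.59 for Igfbp1 in Grow.

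The insulin-responsive transporter Slc2a4, 1 of 8 tested among 12 further entry and glycolysis genes, was called lower in Grow by edgeR (-3.86 ± 0.76, adjusted p = 0.0287) and DESeq2, but not by limma-voom. In tumours edgeR and limma-voom called none of the 8, with 2 at an unadjusted p under 0.05 by each, and DESeq2 called Slc2a4 and Pfkfb4. It stood at 0 to 0.505 CPM in Grow, near the level of 3 counts (0.220 to 0.553 CPM in these libraries), and at 0.985, 3.76, 4.38 and 0.423 CPM in Regress 1 to 4, against 3.69, 9.99, 1.94 and 2.76 CPM in Normal 1 to 4, so the fitted fold rests on few counts. The call was lost without Normal 1, 2, 3 or 4 or Grow 1, 5 or 6, with log2 fold changes of -4.11 to -3.15 over the 14 fits. Of 11 hypoxia-induced genes outside glycolysis, Ndrg1 rose in tumours by edgeR (2.48 ± 0.60, adjusted p = 0.0451), a call also made by DESeq2, not by limma-voom, and lost in 12 of 14 fits with 1 library left out, all but those without Grow 2 or Regress 1 (2.20 to 2.67 over the 14 fits). These 11 genes did not move together, with 7 positive and 4 negative log2 fold changes in tumours and a median of 0.12. By edgeR, 2 were higher and 2 lower at an unadjusted p under 0.05. None of 8 pentose phosphate genes and none of 6 tested fructose and galactose genes was called by edgeR. In tumours 1 and 2 of them had an unadjusted p under 0.05 by edgeR, as 18% of all features had. limma-voom called none of them there either, whereas DESeq2 called G6pdx and Slc2a5. Over all 9 lists of further genes, with 112 genes tested, edgeR, DESeq2 and limma-voom called 9, 21 and 4 in tumours against Normal. The 3 tools called 2.32%, 8.61% and 1.03% of all features there. In Grow against Normal they called 6, 18 and 3, beside 1.76%, 8.27% and 0.732% of all features. Of the 9 in tumours, limma-voom called Hlf, Igfbp1, Per2 and Slc16a1 and not Pck2, Gyg, Pdk4, Tat or Ndrg1. edgeR called 0 in Regress against Normal (0.0244% of all features), with 29 at an unadjusted p under 0.05 (16.2%). DESeq2 called 16 (5.81%) and limma-voom 0 (0%). In Regress against Grow the 3 tools called 0 each, with 9 (edgeR), 10 (DESeq2) and 9 (limma-voom) at an unadjusted p under 0.05. Of all features, 10% had such a p by edgeR.

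Pck1 and G6pc are known to follow the daily feeding cycle. Of 12 clock genes, edgeR called 2 in tumours, 1 in Grow and 0 in Regress against normal liver, and 0 in Regress against Grow. Its shares of all features there were 2.32%, 1.76%, 0.0244% and 0%. Against normal liver, 8 had an unadjusted p under 0.05 by edgeR in tumours (18% of all features), 7 in Grow (16.6%) and 7 in Regress (16.2%). In Regress against Grow none had (10%). DESeq2 called 5, 4, 4 and 0 in the same comparisons (8.61%, 8.27%, 5.81% and 0.253% of all features). limma-voom called 2, 1, 0 and 0 (1.03%, 0.732%, 0% and 0%). The mean log2 CPM of Arntl and Npas2 minus that of the opposite-phase genes Dbp and Per3 was -2.54 to 3.22 in Grow, 2.34, -5.92, -1.16 and 3.93 in Regress 1 to 4, and -6.70 to -4.69 in Normal. By edgeR, Hlf fell by 1.56 in tumours (SE 0.24, adjusted p = 0.0168) and by 1.42 in Grow (SE 0.27, adjusted p = 0.0287), and Per2 fell by 1.73 in tumours (SE 0.42, adjusted p = 0.0460). The call of Hlf in tumours was lost without Normal 3 or 4 and in Grow without Normal 1, 3 or 4 or Grow 1, 5 or 6, and that of Per2 in all fits with 1 library left out but those without Grow 1, Regress 1 or Regress 2. Over these fits the log2 fold changes were -1.75 to -1.36 and -1.61 to -1.23 for Hlf, and -2.16 to -1.58 for Per2. In Regress 2, the tumour with a clock difference inside the normal range and with the buffer of the normal livers, Pck1 was at 570.4 CPM, G6pc at 7.71, Fbp1 at 787, Pkm at 32.4 and Ldha at 1588. Regress 2 is 1 library, and its clock difference rests on 4 of the 12 clock genes. The state of the clock and the tissue cannot be told apart in these data, and the part of the clock in these values was not tested.

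Markers of further cell types also moved with the groups. The sum of 9 cholangiocyte markers was 34.8 to 638 CPM in Grow and 30.3 to 569 CPM in Regress, against 20.1 to 27.9 CPM in Normal, led by Tspan8 with medians of 107, 207 and 2.90 CPM in that order. That of 9 proliferation genes was 33.3 to 65.9 CPM in Grow and 3.95 to 67.4 CPM in Regress, against 2.18 to 3.69 CPM in Normal, with Mki67 at medians of 10.5, 1.79 and 0.424 CPM and Top2a at 7.03, 3.42 and 0.526 CPM. Both sums were higher in every tumour than in any normal liver. In tumours edgeR called 2 of 6 tested cholangiocyte markers (Prom1 and Tspan8) and 6 of 9 proliferation genes, all higher (2.32% of all features). limma-voom called none of these 8, and each call was lost in 3 or more fits with 1 library left out.

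The sum of 9 markers of recruited monocytes and macrophages was 92.7 to 418 CPM in Grow and 224 to 722 CPM in Regress, against 61.7 to 367 CPM in Normal, with Lyz2 at medians of 161, 264 and 148 CPM. Spp1, which the monocyte and cholangiocyte lists share, had medians of 21.0, 38.0 and 16.8 CPM. Neutrophil markers summed to 54.9 to 281, 94.4 to 416 and 29.9 to 82.0 CPM in Grow, Regress and Normal, mostly Lcn2 (medians of 154, 279 and 23.2 CPM), which stressed hepatocytes also make, with S100a9 at 3.71, 19.7 and 8.04 CPM. Adipocyte markers summed to 13.8 to 58.7, 8.27 to 91.7 and 3.50 to 6.32 CPM, mostly Fabp4 (medians of 37.2, 33.5 and 3.62 CPM) and Cidec (6.61, 6.22 and 0 CPM), with Lep at 0 throughout. Kupffer cell, endothelial, lymphocyte and erythroid sums overlapped among all 3 groups. Only 2 of 7 adipocyte markers, Fabp4 and Cidec, passed the low-count filter, and edgeR called both higher in tumours. DESeq2 called both there and limma-voom neither. The call of Fabp4 was lost in 4 and that of Cidec in 11 of 14 fits with 1 library left out. The periportal marker Asl was called lower in tumours and in Grow, and the stellate cell marker Dcn lower in Grow. All 3 tools made these calls, which edgeR lost in 4, 2 and 2 of the 14 fits. The 10 stellate cell and fibroblast markers split in Grow against normal liver, with 5 positive and 5 negative log2 fold changes.

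Kupffer cell markers summed to 112 to 571, 324 to 983 and 413 to 1176 CPM in Grow, Regress and Normal, with medians of 101, 81.2 and 139.6 CPM for Cd5l and 62.8, 77.9 and 59.4 CPM for C1qa. Endothelial markers summed to 119.9 to 339, 163 to 231 and 140.2 to 204 CPM, with 30.9, 78.0 and 59.6 CPM for Clec4g and 37.0, 24.0 and 26.6 CPM for Stab1. Of the 10 endothelial markers, 8 had a positive log2 fold change in tumours, and edgeR called Cd34 (3.49, adjusted p = 0.0408) and Lyve1 (3.09, adjusted p = 0.0443) higher. Cd34 was at 3.87 to 8.84 CPM in Grow and 0.197 to 16.01 CPM in Regress, against 0 to 1.05 CPM in Normal, and Lyve1 at 7.40 to 24.6 and 1.18 to 29.5 CPM against 0.448 to 2.91 CPM. DESeq2 called both and limma-voom neither, and both calls were lost in 12 of 14 fits with 1 library left out, all but those without Grow 2 or Regress 1 (3.07 to 3.75 for Cd34 and 2.77 to 3.57 for Lyve1 in log2 fold change). Lymphocyte markers summed to 3.30 to 17.2, 7.05 to 22.4 and 2.69 to 12.4 CPM, with 0.819, 1.69 and 0.890 CPM for Mzb1, 1.19, 2.07 and 0.745 CPM for Gzma and Klrb1c at 0. Erythroid markers summed to 354 to 1322, 189.8 to 996 and 443 to 2299.6 CPM, with 349, 435 and 855 CPM for Hba-a1 and 74.9, 109 and 192 CPM for Hbb-b2. The part of these cells in the levels of Pkm, Pfkp, Aldoa, Hk1 and Pygb was not tested.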

How the data were processed

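RNA of 10 liver tumours and 4 normal livers was extracted with a column kit, and libraries were made with a TruSeq RNA kit that does not keep the strand, per the labels' protocols. The authors deposited 1 table of estimated counts for 35230 transcript rows, and Salmon 0.3.1, edgeR 3.14.0 and the mm9 build appear, with no role, in the submitters' processing notes; which step made the counts is not given in the sources used here. Of its columns, 1 empty and unnamed column was not used. Accessions were matched to gene symbols for 26081 rows with a RefSeq table and for 144 with a GENCODE table; 9005 rows kept their own name and held 3.52% to 12.1% of a library.

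Rows were summed per symbol to 30436 features and rounded to whole numbers. edgeR 4.0.16 (R 4.3.3) was fitted to all 14 libraries with TMM scaling and its default low-count filter, which kept 12300 features, and its quasi-likelihood test gave p-values adjusted by Benjamini-Hochberg over all of them, with calls at an adjusted p under 0.05. CPM used the TMM-adjusted library sizes and log2 CPM a prior count of 2. CPM per kb used the lengths of GENCODE transcripts matched to each RefSeq row, averaged over a gene's rows with weights by counts. Standard errors follow from the fold change and its F statistic. The fit was tested on simulated data with known changes.

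Alternatives were DESeq2 1.42.0, limma-voom 3.58.1, other scalings, no filter, other sample sets, a replicate block, a length correction and each library left out. The members, lists, pairs and alternatives were chosen with earlier results of these data known; some listed genes and pairs are not reported here. The rule for naming genes took, per comparison, every member called and the 4 others of lowest p, with values in every library for both forms of each pair, and up to 4 called genes of each other list; other members were described from their values. Promoter windows are RefSeq GRCm38.p6 sequence, used for sequence only, since the counts rest on mm9. Near-identical copies and overlapping genes can share reads, and no interval covers that.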

Additional observations from a re-analysis of the deposited data

Results flagged for a closer look

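Within groups of 4 or 6 libraries, 129 groups of 43 genes were checked for 1 library far from the rest. Dixon's gap test was used at the 95% level, which chance passes in about 1 of 20 groups. It flagged 6, about as many as chance alone would give. Regress 4 was far below the other Regress tumours for Fbp1, at 150.1 CPM against 659 to 821. Grow 1 was far below the other Grow tumours for G6pc, at 42.4 CPM against 95.8 to 148. Grow 5 was far above them for the glycolytic mutase Pgam1, at 231 CPM against 119 to 152. Outside the set, Regress 1 was low for the glycogenin Gyg, at 7.29 CPM, and Grow 1 was high for the clock gene Per2, at 25.0 CPM, and low for the transporter Slc2a4, at 0 CPM. Being flagged here does not by itself set a library apart, and causes were not tested.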

How the results depend on the processing

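Each result was recomputed under 24 alternatives, 14 of which leave out 1 library. Member calls: DESeq2 gave 1 higher and 1 lower in tumours against normal liver, 1 lower in Grow and 2 higher in Regress against normal liver, and fitting only the groups compared gave 1 lower in Grow. With 1 library left out, members called higher and lower were 0 to 1 and 0 to 0 in tumours, 0 to 0 and 0 to 1 in Grow, 0 to 3 and 0 to 0 in Regress, and 0 to 1 each in Regress against Grow; the calls came without Regress 1 or Regress 4. Over all features, calls in tumours against normal liver numbered 660 with the length trend removed, 0 without the 2 samples that share a code, 127 by limma-voom and 1055 by DESeq2, and 0 to 991 with 1 library left out. In Grow they numbered 547 with the length trend removed, 877 with only the groups compared, 18 without the shared-code samples, 113 with Grow 3 and Grow 4 summed, 90 by limma-voom and 1014 by DESeq2, and 4 to 651 with 1 library left out. In Regress they numbered 35 with DESeq2 size factors, 155 with the length trend removed and 712 by DESeq2, 0 with upper-quartile factors, only the groups compared, the shared-code samples left out, Grow 3 and Grow 4 summed, or limma-voom, and 0 to 667 with 1 library left out. Regress against Grow gave 31 by DESeq2 and 0 to 1249 with 1 library left out. The cause of these changes was not tested.

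The replicate block left 0 calls over all features in tumours, Grow and Regress against normal liver, and 3, 3, 4 and 0 members at an unadjusted p under 0.05 in the 4 comparisons by edgeR. Same-numbered samples had correlations of -0.522 to 0.197, so the numbers do not pair the samples. Of 744 recomputed fold changes, 578 kept direction and side of the threshold, 155 lost a call, 11 gained one and none turned. Group differences of the isoform pairs kept their direction in 120 of 120 repeats. Depth limits the lowest genes: Eno1 and Hk2 in 4 libraries each, Hk1 and Hk3 in Regress 3, Pfkp in Normal 3 and, outside the set, Slc2a4 in most Grow tumours held 3 counts or fewer, a level of 0.220 to 0.773 CPM. For the other members the spread between libraries sets the errors. Standard errors of the log2 fold change in tumours ran from 0.19 for Pklr to 0.90 for Ldhb. The coefficient of variation of 0.484 is a single value for all tested features and not that of the members.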
